A study of Homo sapiens with 18 samples.

Results

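The 41 genes described here code for the machinery that copies DNA and for the switches that let a cell enter S phase. They were taken as a named list of replication and S-phase entry genes, each represented by the transcript assigned to that gene alone with the highest mean signal over all arrays, and all 41 were found among the 33616 genes of the table. The list was chosen with earlier results of these data known. Its shares set against those of all genes therefore describe the list and are not independent evidence. HT-29 and HCT116, both human colorectal cancer cell lines, were left untreated (control) or were treated with 2.5 µM erastin (ER), an inhibitor of cystine uptake that induces ferroptosis, for 4 h or 24 h. Each of the 6 groups had 3 Affymetrix whole-transcriptome arrays, 18 in all. A single untreated group per line served as the control for both times, and neither a vehicle nor a time in culture is stated for it, so the effects of ER, of its DMSO solvent and of time in culture cannot be told apart. The methods state 3 independent experiments. The labels do not say how the arrays of a group were separated, so p-values measure the spread between these arrays.

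DNA replication is prepared in G1, when the origin recognition complex, CDC6 and CDT1 load the ring of MCM proteins onto DNA. At the start of S phase, CDC45 and the GINS complex turn the loaded ring into a moving helicase, and polymerases, the PCNA clamp with its loader RFC, and the enzymes that supply nucleotides follow. Cyclin E with its kinase drives this step, the phosphatase CDC25A removes the inhibitory phosphates from that kinase, and E2F1 is a transcription factor for many of the genes involved. In bulk RNA, fewer cells in S phase and less of a transcript per cell cannot be told apart.

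The values are deposited log2 signals, and a difference is a log2 fold if the scale is taken as stated. The lowest value was 2.28 and the highest 19.92, and since a 16-bit scanner cannot give a log2 value above 16, all folds share a doubt about the scale. Of 9 colon epithelial markers, EPCAM, KRT8, KRT18 and KRT19 lay between 13.22 and 18.31 on all arrays, CDH1 between 10.04 and 13.34 and CDX2 between 8.001 and 9.48, while VIL1 lay between 5.48 and 8.88 in HT-29 and between 5.05 and 6.19 in HCT116. The 8 leukocyte, fibroblast and endothelial markers lay between 3.66 (CDH5) and 9.60 (COL1A1, 8.94 at its lowest), and the other 7 did not exceed 7.81 (CD3E). Some arrays stood apart. LYZ averaged 17.12 on the replicate 1 arrays of HT-29, against 10.34 and 11.24 on those of replicates 2 and 3, and KRT20 averaged 14.15, against 8.68 and 9.02. On the HCT116 arrays LYZ lay between 5.54 and 6.13 and KRT20 between 6.98 and 7.81. VIL1 averaged 8.29 on the HT-29 replicate 1 arrays, against 5.74 and 6.22 on those of replicates 2 and 3. CDH1 averaged 13.20, against 11.20 and 11.66. The HCT116 means of replicates 1 to 3 were 5.44, 5.76 and 5.57 for VIL1 and 11.61, 11.00 and 10.98 for CDH1. On VIL1 and CDH1, replicates 2 and 3 of HT-29 thus lay nearer to HCT116 than to replicate 1 of HT-29. On LYZ and KRT20 they lay above all HCT116 arrays. The 24 h array of HCT116 replicate 1 stood apart in the replication genes themselves, as described next. The part of either in the results was not tested beyond the values given without those arrays.

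At 24 h of ER most replication and S-phase entry genes had lower signal than in untreated cells in both lines, with CDC25A, cyclin E1 (CCNE1), cyclin E2 (CCNE2), the flap endonuclease FEN1 and the ribonucleotide reductase subunit RRM2 low in each. At 4 h, 24 of 41 were lower in HT-29 (58.5%) and 10 of 41 in HCT116 (24.4%). Among the 7699 genes with a mean signal of at least 9, 63.0% and 33.4% were. In HT-29 all 3 of the 24 h arrays carried the shift. Their medians over the 41 genes were -0.68, -0.49 and -0.29 relative to the control mean on the log2 scale, and 38, 33 and 31 of the 41 lay below that mean. In HCT116 the 24 h array of replicate 1 had a median of -0.80 with 37 of 41 below, while replicates 2 and 3 had -0.09 and 0.01 with 27 and 16 below. The medians of all 33616 genes on these 6 arrays lay between -0.06 and 0.07. The HCT116 shift over the list as a whole thus rested on a single array, and values without it are given beside most of the HCT116 results.

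**Figure D1:**
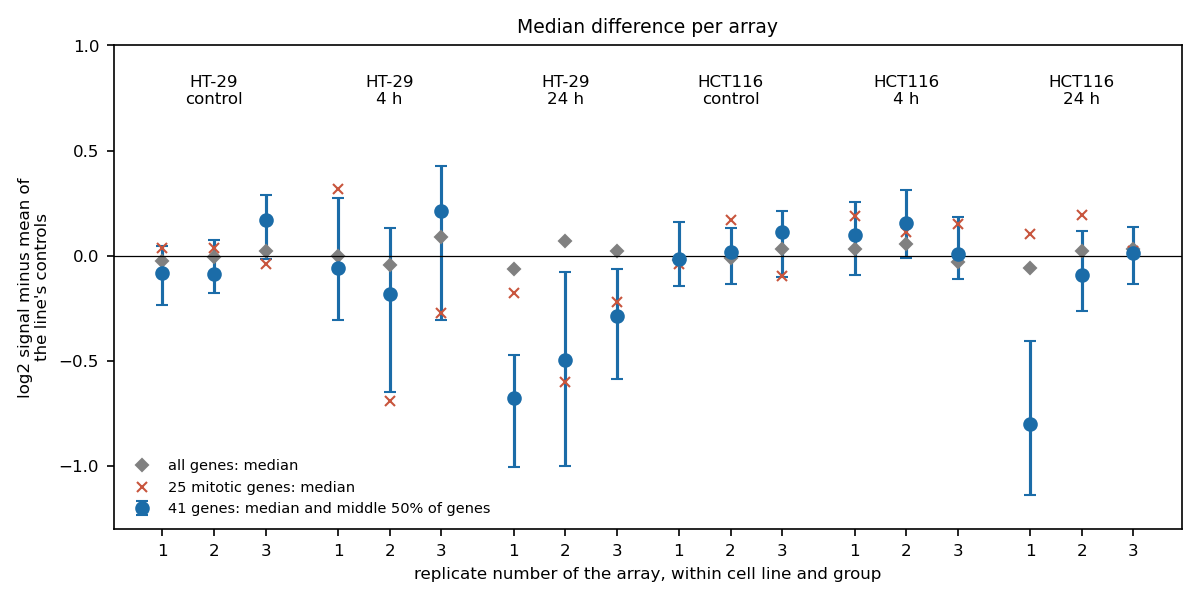
Log2 signal of each array minus the mean of the line's control arrays, for the 18 arrays in order of line, group and replicate. Circles are medians over the 41 genes with the middle 50% of genes as bars, diamonds are medians over all genes and crosses medians over 25 mitotic genes, and the circles of the 3 HT-29 24 h arrays and of HCT116 24 h replicate 1 lie lowest, between -0.29 and -0.80.

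In HT-29 at 24 h against the control, 37 of 41 differences were negative, with a median of -0.50, against a median of 0.02 over all genes. Differentially expressed transcripts (DETs) were called at the thresholds of the methods, a change of 1.2-fold or more with p no higher than 0.005 before any correction, here from a limma fit of the 9 arrays of each line. A total of 5 members, CDC25A, MCM10, ORC6, GINS1 and FEN1, were lower DETs (12.2% of the 41, against 0.271% of all genes), and no member was a higher DET (0.416% of all genes). At an unadjusted p under 0.05 in the same fit, 14 of 41 were lower (34.1%, against 2.09% of all genes), and in 17 every 24 h array lay below every control array (41.5%, against 5.41% of all genes). Not one difference passed a Benjamini-Hochberg adjusted p under 0.05 in limma over 135750 transcripts, where the lowest was 0.24 (CDC25A), and the methods' t-test gave 3 DETs with 10 lower at p under 0.05. Here and below, that t-test took its p from the t distribution. Shares of all genes are from the limma fits with all arrays and no block. They were not computed for the t-test, the replicate block or fits without some arrays, so counts from those have no share beside them. The permutation-based p-values that the methods also name were not computed. Members are mostly of high signal, and among the 7699 genes with a mean of at least 9, a set chosen after seeing the data that holds 38 of the 41, 1.01% were lower DETs and 11.1% had no overlap. Without the replicate 1 arrays of HT-29 the median was -0.45 and 4 members were lower DETs (CDC25A, MCM10, FEN1 and CCNE2). With all arrays and the replicate number as a block, 7 were.

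In HCT116 at 24 h against the control, 33 of 41 differences were negative and the median was -0.30, against 0.01 over all genes. No member was a DET in limma (0.351% of all genes were lower DETs and 1.65% higher DETs), the lowest adjusted p was 0.43, and the methods' t-test gave 0. A limma fit with the replicate number as a block gave 2 lower DETs, CDC25A and CCNE2. In HCT116 5 members had an unadjusted p under 0.05 in limma, all lower (12.2%, against 3.82% of all genes), namely CDC25A, CCNE2, CCNE1, RRM2 and FEN1, and the t-test gave 0. In 4 of these 5 every 24 h array lay below every control array (9.76% of the 41, against 6.54% of all genes), the exception being CCNE2. Among the 7699 genes with a mean of at least 9, 0.597% were lower DETs, 5.81% were lower at p under 0.05 in limma and 6.48% had no overlap. Without the 24 h array of replicate 1, 21 of 41 differences were negative, the median was -0.0034 and 0 members were DETs in limma, with CDC25A and CCNE2 lower and PRIM2 higher at an unadjusted p under 0.05. The medians by role without that array were -0.58 for S-phase entry control, -0.10 for helicase activation, -0.0085 for origin licensing, 0.008 for the clamp and lagging strand group, 0.06 for nucleotide supply and 0.09 for the polymerases.

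**Figure D2:**
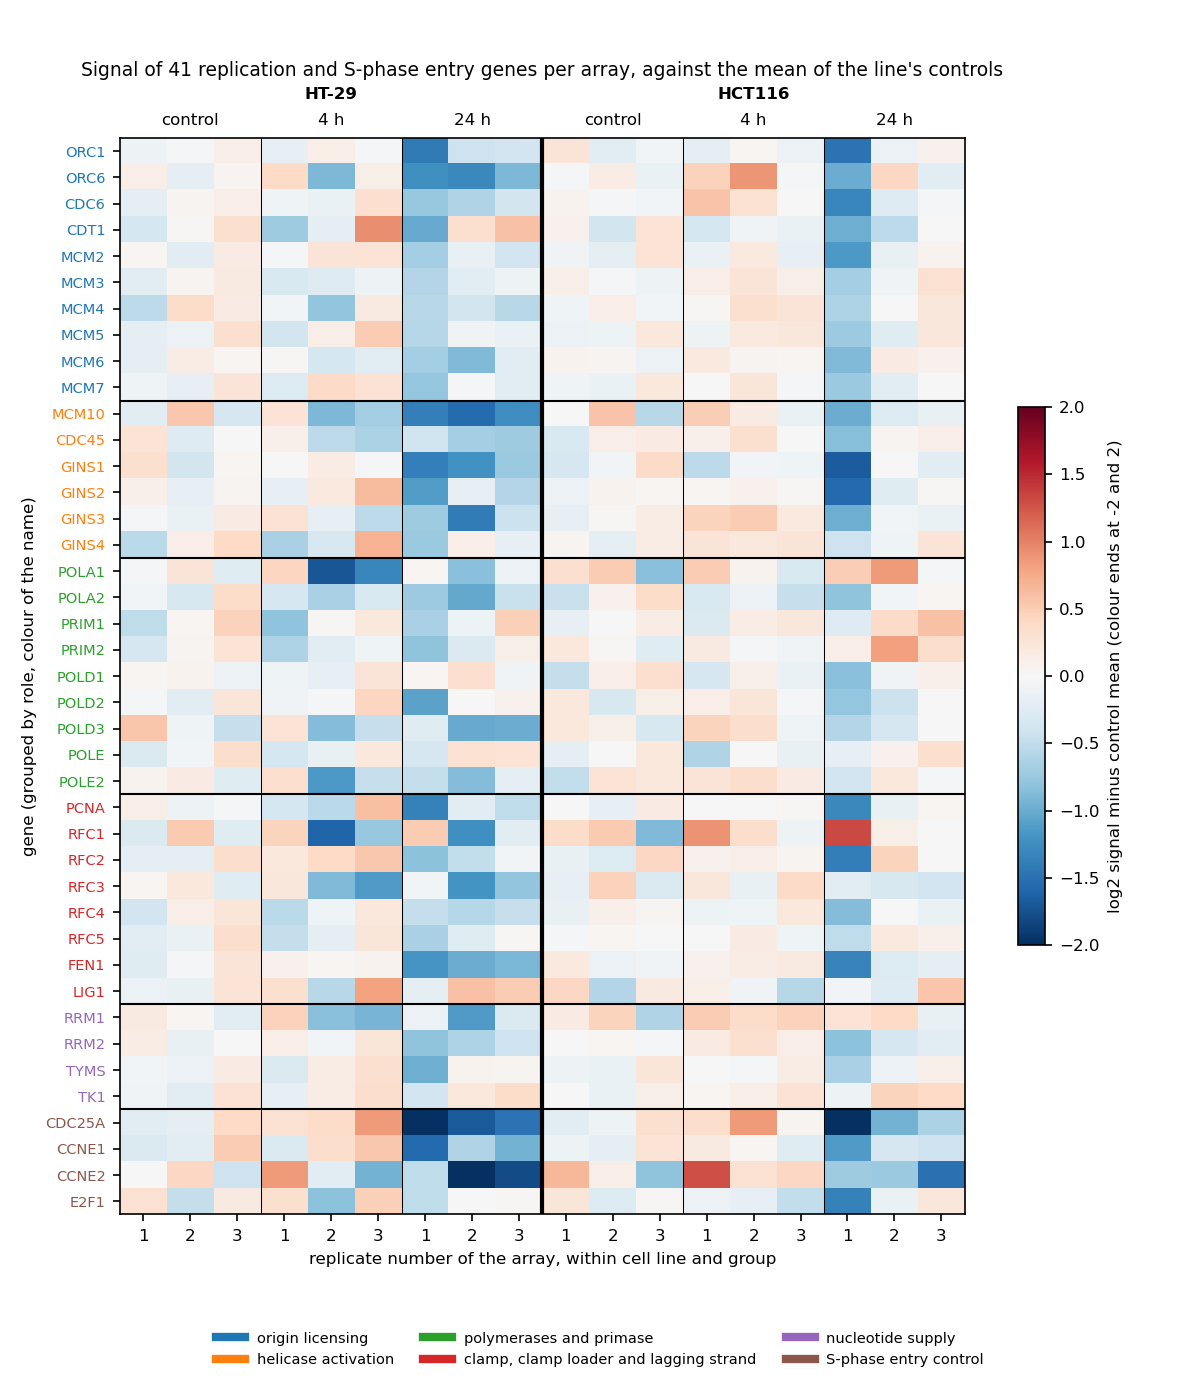
Log2 signal of each of the 41 genes (rows, grouped by role and coloured by it) on each of the 18 arrays (columns), minus the mean of the line's control arrays, with the colour scale ending at -2 and 2. The 24 h columns of HT-29 and the replicate 1 column of HCT116 at 24 h are mostly blue, and CDC25A is blue on all 6 of the 24 h arrays.

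At 4 h no member was a DET in either line in limma or in the methods' t-test. In HT-29 the median was -0.09 with 24 of 41 negative, and in HCT116 it was 0.09 with 31 of 41 positive. The 7699 genes with a mean of at least 9 had medians close to these, -0.10 in HT-29 and 0.09 in HCT116. Of those genes, 63.0% and 33.4% were negative. No difference had an unadjusted p under 0.05 in limma with all arrays. In HT-29, 0.0297% of all genes were lower DETs, 0.131% higher DETs and 1.01% lower at p under 0.05, while HCT116 had 0.0744% lower DETs, 0.137% higher DETs and 1.32% lower at p under 0.05. The t-test put 2 members of HCT116 higher at p under 0.05 and none in HT-29. Without the 4 h array of HT-29 replicate 1, 6 members were lower at p under 0.05, and without all 3 replicate 1 arrays of HT-29, 5 were, with no share of all genes computed for these fits. In both cases 1 member became a lower DET, POLA1, the catalytic subunit of polymerase alpha, which was at 11.73, 9.59 and 10.002 at 4 h, against 11.28, 11.57 and 11.07 in the control. The 4 h array of replicate 2, with the lowest of these values, was also low in other genes. Relative to the control mean, genes with a mean of at least 9 had a median of -0.37 on it and 0.05 on replicate 3. The medians of the mitotic genes were -0.69 and -0.27.

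The 24 h arrays were also set against the 4 h arrays, which are likewise ER-treated. In HT-29, 35 of 41 differences were negative with a median of -0.35, and 4 members fell as DETs, CDC25A, CCNE1, GINS1 and FEN1 (9.76%, against 0.714% lower and 0.97% higher among all genes). A total of 14 members were lower at an unadjusted p under 0.05 (34.1%, against 3.72%), and 12 did not overlap (29.3%, against 6.1%). Among the 7699 genes with a mean of at least 9, 2.44% were lower DETs, 8.34% were lower at p under 0.05 in limma and 9.51% did not overlap. CDC25A alone passed the correction over all transcripts (adjusted p = 0.027 in limma, with 0.0149% of all genes lower at that threshold). That call was lost in a fit of only the 6 arrays compared (adjusted p = 0.13 in limma), with the methods' t-test and without any one of 7 of the 9 arrays (0.053 to 0.16). Without the replicate 1 arrays of HT-29, 27 of 41 differences were negative and the median was -0.26. The lower DETs were then CDC25A, CCNE1 and CCNE2, with 7 members lower and 1 higher at an unadjusted p under 0.05 in limma. In HCT116, 33 of 41 were negative with a median of -0.35, and CDC25A and CCNE2 fell as DETs (4.88%, against 1.31% lower and 2.3% higher among all genes). A further 6 made 8 at p under 0.05 (19.5%, against 6.48%), 9 did not overlap (22.0%, against 10.1%), and the lowest adjusted p in limma was 0.14. The shares among genes with a mean of at least 9 lay nearer to those of the members. Of those genes in HCT116, 3.68% were lower DETs, 12.8% were lower at p under 0.05 in limma and 16.2% did not overlap. The methods' t-test gave 3 DETs in HT-29 and 0 in HCT116, where 3 members were lower at p under 0.05 by that test. Without the HCT116 24 h array of replicate 1 the median was -0.07, 4 members were lower at p under 0.05 and both DETs still passed. This comparison uses the same 24 h arrays as the one with the control, so its counts are not separate evidence.

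The cell lines were compared by the difference of their differences in a fit of all 18 arrays. At 24 h, the difference from the control was lower in HT-29 than in HCT116 in 35 of 41 members (85.4%), with a median of -0.23 for HT-29 minus HCT116. Over all genes 50.8% were negative with a median of -0.0064. Among the 7699 genes with a mean of at least 9, 67.4% were, with a median of -0.14. The members' median was -0.51 without the HCT116 24 h array of replicate 1, with 7 members at an unadjusted p under 0.05 and 0 DETs, and -0.06 without the HT-29 24 h array of replicate 1. The shares of all genes were not computed without these arrays. With all arrays none was a DET (0.164% of all genes in either direction) or had an unadjusted p under 0.05 (2.31%), and the lowest adjusted p in limma was 1. The lowest, MCM10 and ORC6, were -0.90 ± 0.48 and -0.87 ± 0.48 (SE). At 4 h 26 of 41 were negative (63.4%) with a median of -0.13, 0 were DETs (0.131%) and 0 had p under 0.05 (2.81%), with a lowest adjusted p of 1.00 in limma. Over all genes 49.7% were negative at 4 h with a median of 0.0029. Among the genes with a mean of at least 9, 67.7% were, with a median of -0.17. The methods' t-test was not run for this contrast. The median SE of a member's difference between the lines was 0.43.

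**Figure D3:**
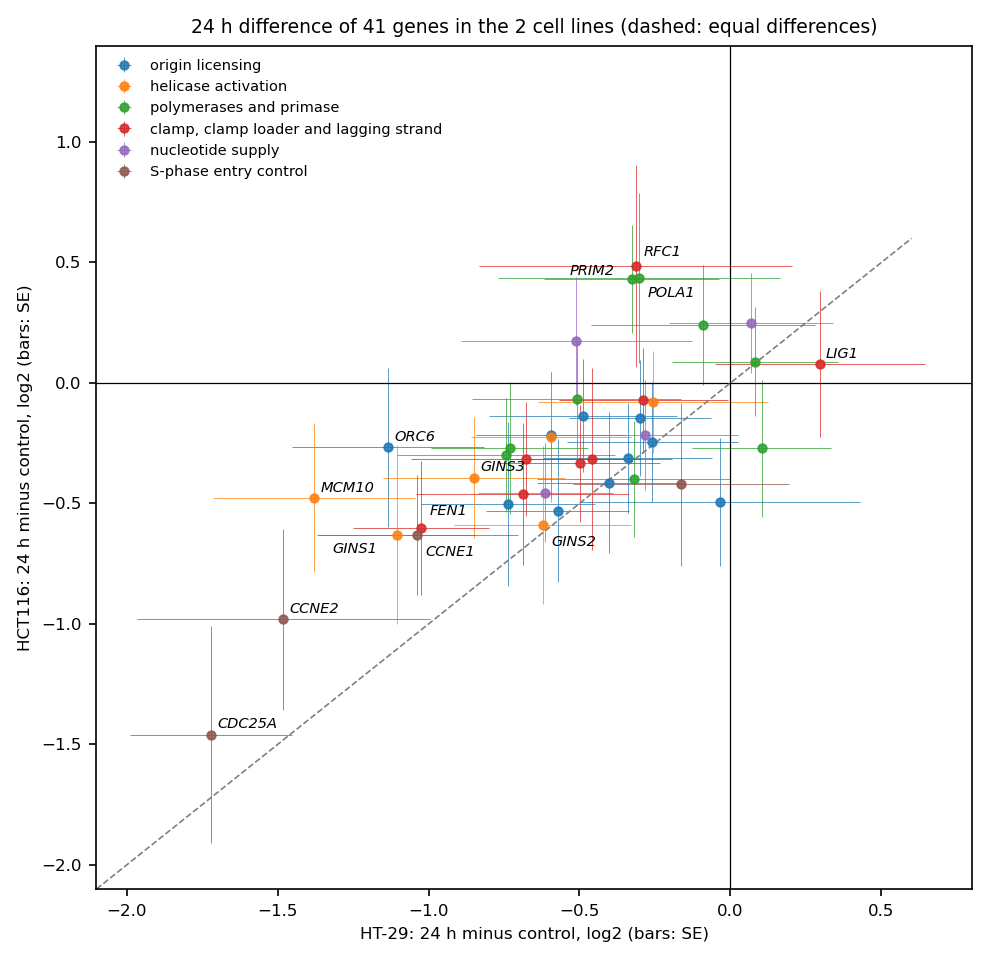
Difference at 24 h minus control on the log2 scale, HT-29 on the x axis and HCT116 on the y axis, for the 41 genes coloured by role, with SE bars from limma. Of the 41 points, 32 are negative in both lines, CDC25A (-1.72 and -1.46) and CCNE2 (-1.48 and -0.98) lie farthest towards the lower left, and 35 lie above the dashed line of equal differences.

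The S-phase entry group held the largest differences, with medians over its 4 members of -1.26 in HT-29 and -0.81 in HCT116 at 24 h. CDC25A, the phosphatase that activates cyclin-dependent kinases, was at 11.09, 11.11 and 11.69 on the HT-29 control arrays, 11.61, 11.66 and 12.16 at 4 h and 9.29, 9.62 and 9.82 at 24 h. All 24 h arrays lay below all others of the line. It fell 3.29-fold (-1.72 ± 0.27 SE, adjusted p = 0.24 in limma) against the control and 4.70-fold against 4 h. In HCT116 the control arrays read 11.5, 11.62 and 12.05, and CDC25A was at 12.08, 12.58 and 11.77 at 4 h and 8.92, 10.78 and 11.09 at 24 h. Again the 24 h arrays lay below all others, with replicate 1 far below replicates 2 and 3. The difference from the control was -1.46 ± 0.45 (unadjusted p = 0.0068, adjusted p = 0.43 in limma), just outside the DET threshold, and -0.79 without that array, and against 4 h it fell by 1.88, or by 1.21 without that array. The difference between the lines at 24 h was -0.26 ± 0.57.

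Cyclin E2, an activator of CDK2 at the start of S phase, was at 10.19, 10.60 and 9.77 on the HT-29 control arrays, 11.04, 9.98 and 9.25 at 4 h and 9.68, 8.04 and 8.40 at 24 h. Its HCT116 values were 10.84, 10.31 and 9.36 in the control, 11.46, 10.48 and 10.58 at 4 h and 9.47, 9.43 and 8.67 at 24 h. The 24 h arrays lay below the control arrays in HT-29 and overlapped them in HCT116, where the lowest control array was that of replicate 3. The differences from the control were -1.48 ± 0.48 in HT-29 and -0.98 ± 0.38 in HCT116, neither a DET. In HCT116 it fell by 1.65 against 4 h (SE 0.38, adjusted p = 0.14 in limma), and by 1.79 without the 24 h array of replicate 1, so this fall did not rest on that array. The replicate 1 array of HCT116 was the highest for this gene in the control, at 4 h and at 24 h. Cyclin E1, the paralogue with the same partner, was at 11.44, 11.52 and 12.24 in HT-29 controls, 11.44, 12.08 and 12.28 at 4 h and 10.17, 11.13 and 10.78 at 24 h. It fell 2.36-fold against 4 h as a DET, and its difference from the control was -1.04 ± 0.33 (adjusted p = 1.00 in limma). HCT116 arrays gave it 11.86, 11.78 and 12.23 in the control, 12.13, 11.99 and 11.71 at 4 h and 10.82, 11.62 and 11.54 at 24 h, a difference of -0.63 ± 0.25 from the control, or -0.38 without replicate 1 at 24 h. E2F1 differed from the other members of the group. Its 24 h arrays read 8.34, 8.84 and 8.87 in HT-29, against 9.15, 8.37 and 9.03 in the control, and 7.67, 8.88 and 9.25 in HCT116, against 9.27, 8.75 and 9.04. The groups overlapped in both lines (-0.16 ± 0.36 and -0.42 ± 0.34), and without replicate 1 the HCT116 difference was 0.04.

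**Figure D4:**
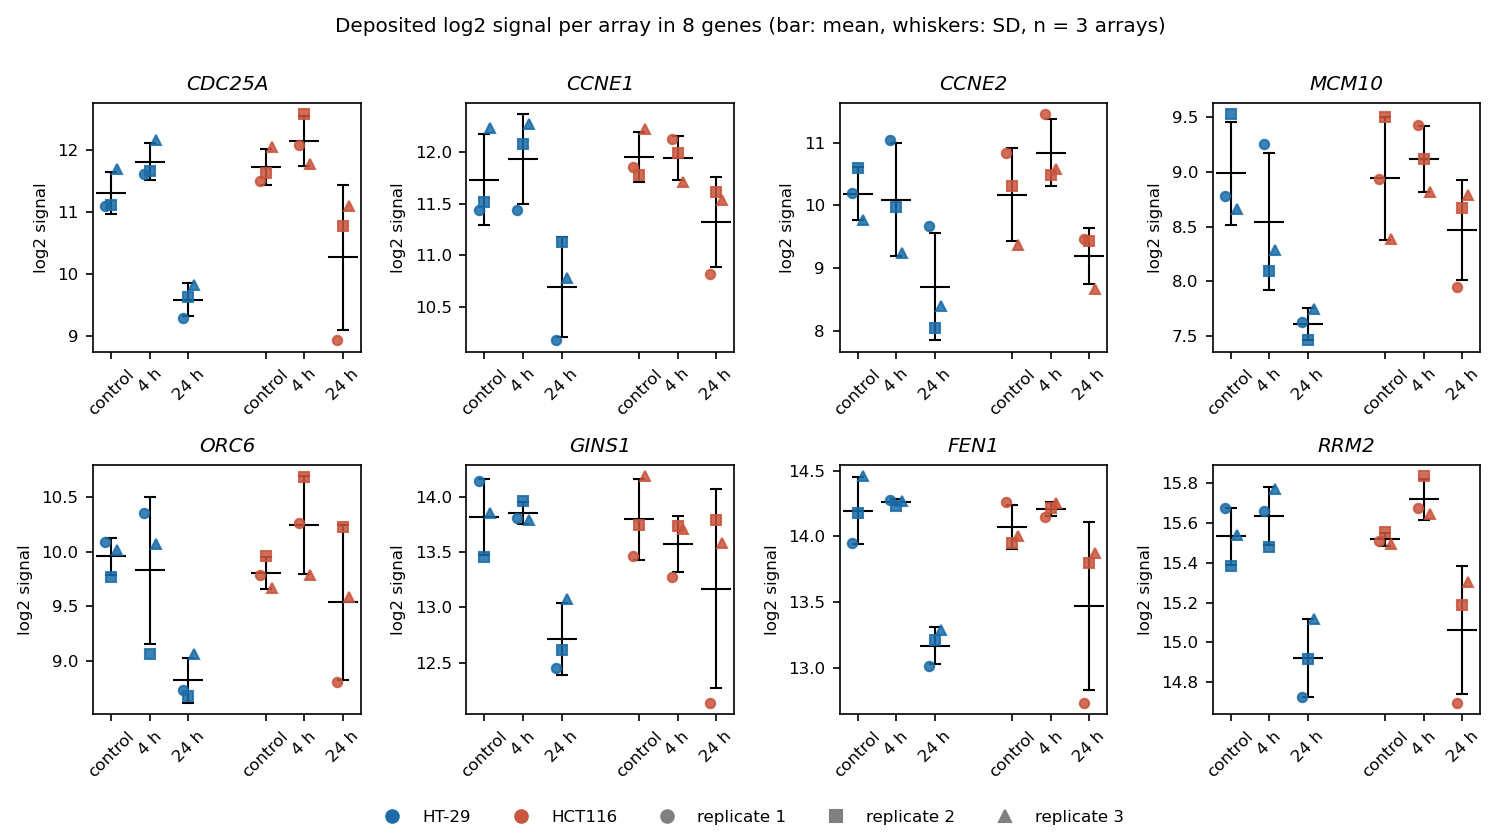
Deposited log2 signal of 8 genes on every array, in HT-29 (blue) and HCT116 (red) for control, 4 h and 24 h, with the replicate number as the symbol, the mean as a bar and the SD of the group's arrays as whiskers. In HT-29 the 24 h points of all 8 genes lie below the control points, while in HCT116 the circle of replicate 1 lies lowest at 24 h in every gene but CCNE2.

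All 10 origin licensing genes were negative at 24 h in both lines, with medians of -0.45 in HT-29 and -0.29 in HCT116, while 6 of 10 were negative in HCT116 without the 24 h array of replicate 1. ORC6, a subunit of the origin recognition complex, was at 10.09, 9.77 and 10.02 on the HT-29 control arrays, 10.35, 9.06 and 10.07 at 4 h and 8.74, 8.68 and 9.06 at 24 h. It fell 2.20-fold against the control (-1.14 ± 0.32, adjusted p = 1.00 in limma), with no overlap, although the 4 h array of replicate 2 was at the level of the highest 24 h array. In HCT116 replicate 1 was lowest at 24 h (8.81, 10.23 and 9.58, against 9.79, 9.96 and 9.67 in the control), with replicate 2 above all control arrays and replicate 3 just below them, and without replicate 1 the difference was 0.10. ORC1, CDC6 and MCM6 were lower in HT-29 at an unadjusted p under 0.05 with no overlap (-0.74, -0.57 and -0.59). CDC6, which loads the MCM ring, was at 14.78, 14.93 and 15.17 at 24 h, against 15.36, 15.59 and 15.66 in the control. MCM7, a ring subunit, was at 16.21, 16.97 and 16.76 at 24 h in HT-29, against 16.90, 16.82 and 17.24, and at 16.24, 16.77 and 16.99 in HCT116, against 16.90, 16.85 and 17.19. Its arrays overlapped, with differences of -0.34 ± 0.28 and -0.31 ± 0.23, the second being -0.10 without replicate 1. The 6 ring subunits MCM2 to MCM7 had differences of -0.26 to -0.59 in HT-29, and CDT1 had the smallest of the group (-0.03 ± 0.46).

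All 6 helicase activation genes were also negative at 24 h in both lines, with medians of -0.74 in HT-29 and -0.43 in HCT116, while 4 of 6 were negative in HCT116 without the 24 h array of replicate 1. MCM10, which helps start the helicase, was at 8.78, 9.53 and 8.66 on the HT-29 control arrays, 9.26, 8.09 and 8.29 at 4 h and 7.62, 7.46 and 7.75 at 24 h. It fell 2.60-fold (-1.38 ± 0.34, adjusted p = 1.00 in limma), with the 3 array values at 24 h close together and below every other array. In HCT116 it was at 7.94, 8.67 and 8.79 at 24 h, against 8.94, 9.51 and 8.38, and the groups overlapped (-0.48 ± 0.31, or -0.22 without replicate 1). GINS1, a subunit of the GINS complex, was at 14.15, 13.46 and 13.86 in HT-29 controls, 13.81, 13.97 and 13.79 at 4 h and 12.45, 12.62 and 13.08 at 24 h, and fell 2.15-fold against the control and 2.21-fold against 4 h. In HCT116 its 24 h arrays read 12.14, 13.80 and 13.58, against 13.46, 13.75 and 14.19 in the control, and the difference of -0.63 ± 0.37 became -0.11 without replicate 1. Of the other GINS subunits, GINS3 was lower in HT-29 at an unadjusted p under 0.05 in limma (-0.85 ± 0.30), GINS2 reached -0.62 ± 0.29 and GINS4 -0.26 ± 0.38. CDC45 was lower in HT-29 with no overlap (-0.59 ± 0.27, adjusted p = 1.00 in limma).

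The polymerase and primase genes had medians of -0.32 in HT-29 and -0.07 in HCT116 at 24 h, 0 DETs and 7 and 5 of 9 negative. POLA2, a subunit of polymerase alpha, was the one member lower at an unadjusted p under 0.05 in HT-29 (9.28, 9.0 and 9.57 at 24 h, against 9.97, 9.70 and 10.39). POLD3 had a difference of -0.74 ± 0.36 in HT-29. PRIM2, a primase subunit, was at 12.59, 13.09 and 13.50 at 24 h in HT-29, against 13.05, 13.44 and 13.65, and at 13.06, 13.74 and 13.27 in HCT116, against 13.13, 12.95 and 12.69. Its arrays overlapped in both lines, and its differences had opposite signs (-0.33 ± 0.29 and 0.43 ± 0.22, or 0.58 ± 0.24 in HCT116 without replicate 1). The difference between the lines had the lowest p of the 41 (-0.76 ± 0.36, unadjusted p = 0.051, adjusted p = 1 in limma). The catalytic subunits POLD1 and POLE differed by 0.10 ± 0.23 and 0.08 ± 0.28 in HT-29.

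In the clamp, clamp loader and lagging strand group, medians were -0.48 in HT-29 and -0.32 in HCT116. FEN1, which trims the flaps of Okazaki fragments, was at 13.95, 14.18 and 14.46 on the HT-29 control arrays, 14.27, 14.23 and 14.27 at 4 h and 13.01, 13.21 and 13.28 at 24 h. It fell 2.04-fold against the control (-1.03 ± 0.23, adjusted p = 0.91 in limma) and 2.13-fold against 4 h, with no overlap. FEN1 in HCT116 was at 14.26, 13.95 and 14.002 in the control, 14.15, 14.22 and 14.25 at 4 h and 12.74, 13.80 and 13.88 at 24 h. Here too no 24 h array reached a control array (-0.60 ± 0.28, adjusted p = 0.59 in limma), but the difference was -0.23 without replicate 1. PCNA, the sliding clamp, was at 12.62, 13.75 and 13.46 at 24 h in HT-29, against 14.10, 13.86 and 13.93, without overlap but with a wide spread (-0.69 ± 0.35). In HCT116 PCNA was low on replicate 1 alone (12.87, 14.01 and 14.19, against 14.15, 13.99 and 14.31), and its difference was -0.05 without it. RFC5, a clamp loader subunit, was at 14.01, 14.42 and 14.67 at 24 h in HT-29, against 14.44, 14.52 and 15.002, and at 13.92, 14.63 and 14.53 in HCT116, against 14.39, 14.48 and 14.43, with overlap in both. The DNA ligase LIG1 was the only member of the group with a positive difference in HT-29 (0.30 ± 0.35).

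Among the 4 nucleotide supply genes, RRM2, the regulatory subunit of ribonucleotide reductase, separated from the rest. It was at 15.67, 15.38 and 15.54 on the HT-29 control arrays, 15.66, 15.48 and 15.77 at 4 h and 14.73, 14.91 and 15.12 at 24 h. On the HCT116 arrays it was at 15.51, 15.55 and 15.49 in the control, 15.68, 15.84 and 15.64 at 4 h and 14.70, 15.19 and 15.30 at 24 h. In both lines no 24 h array reached a control or a 4 h array. The differences from the control were -0.61 ± 0.22 and -0.46 ± 0.21 (adjusted p = 1.00 and 0.58 in limma), neither a DET, and without replicate 1 the HCT116 difference was -0.27 ± 0.20. Its partner subunit RRM1 differed by -0.51 ± 0.38 and 0.17 ± 0.27, thymidylate synthase (TYMS) by -0.28 ± 0.31 and -0.22 ± 0.23, and thymidine kinase (TK1) by 0.07 ± 0.27 and 0.25 ± 0.21, all with overlapping arrays. Without replicate 1 the HCT116 differences were 0.12 for RRM1, 1e-04 for TYMS and 0.42 for TK1.

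Promoter windows of 300 bases around the start of a gene were available from RefSeq (GRCh38.p14) for 36 of the 41 members. The E2F motif TTTNGCGC, searched on both strands, was in the windows of 16 of the 36 (44.4%), against 2.17% of 27305 genes. A CCAAT box (CCAAT) was in 22 (61.1%, against 39.7%), a GC box (GGGCGG) in 27 (75%, against 48.3%), and the cell cycle homology element TTTGAA of mitotic genes in 1 (2.78%, against 18.2%). In members with 1 window, 0 matches of the E2F motif overlapped another of these motifs. The 16 members with the E2F motif had a median of -0.37 at 24 h in HT-29 and 3 lower DETs, and the 20 without it had -0.55 and 2. In HCT116 the medians were -0.27 with the motif and -0.32 without it, or 0.05 and -0.03 without the 24 h array of replicate 1. Parts of the windows of the 5 members that were DETs at 24 h in HT-29 are shown because they hold both cases, with 150 bases before the start and 15 after it, 5′ to 3′ along the gene and the E2F motif in capitals. The windows lie at chr3:48188403-48188567 (minus strand), chr16:46689509-46689673 (plus strand), chr20:25407523-25407687 (plus strand), chr10:13161408-13161572 (plus strand) and chr11:61792761-61792925 (plus strand).
CDC25A: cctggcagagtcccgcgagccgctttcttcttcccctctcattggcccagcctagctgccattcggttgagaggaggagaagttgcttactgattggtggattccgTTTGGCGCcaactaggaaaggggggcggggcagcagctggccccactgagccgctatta
ORC6: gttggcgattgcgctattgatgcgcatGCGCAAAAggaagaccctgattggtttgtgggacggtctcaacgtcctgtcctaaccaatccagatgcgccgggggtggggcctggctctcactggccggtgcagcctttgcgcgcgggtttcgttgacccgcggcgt
GINS1: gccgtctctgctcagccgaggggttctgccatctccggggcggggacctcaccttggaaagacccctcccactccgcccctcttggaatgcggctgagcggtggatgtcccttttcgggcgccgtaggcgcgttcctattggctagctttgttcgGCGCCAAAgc
MCM10: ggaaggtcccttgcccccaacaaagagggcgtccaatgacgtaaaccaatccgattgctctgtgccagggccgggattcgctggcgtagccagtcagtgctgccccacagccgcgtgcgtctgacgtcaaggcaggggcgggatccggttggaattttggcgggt
FEN1: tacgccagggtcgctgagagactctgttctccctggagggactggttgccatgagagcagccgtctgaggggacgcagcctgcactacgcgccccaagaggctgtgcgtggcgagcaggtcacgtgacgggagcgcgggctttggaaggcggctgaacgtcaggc
Counted from the gene's start as base 1, with no base 0, the motif begins at base -44 in CDC25A, -123 in ORC6 and 6 in GINS1, and the windows of MCM10 and FEN1 held no match to these letters. The MCM10 window holds, near its end, a stretch that differs from these letters in the last base alone. Other spellings of an E2F site were not searched, so a member without a match may hold one. A match describes the sequence and was not tested as a binding site.

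The members did not all vary together between arrays. Over the 9 arrays of HT-29, CDC6, RRM2 and CDC25A followed the median of the other members (r = 0.97, 0.91 and 0.90), and in HCT116 GINS2, PCNA and CDC25A did (r = 0.98, 0.97 and 0.95). RFC1, the large subunit of the clamp loader, POLA1 and RRM1 did not (HT-29 r = -0.10, -0.16 and 0.05, HCT116 r = -0.62, -0.38 and -0.15). These 3, named after their values were seen, varied with each other and with the median of 25 mitotic genes (r = 0.85, 0.85 and 0.91 with that median in HT-29 and 0.53, 0.67 and 0.89 in HCT116). They were not alone in this. In HT-29 RFC3 did not follow the other members (r = -0.0027) but varied with the mitotic median (r = 0.84), and POLE2 had r = 0.97 with that median. In HCT116 PRIM2, LIG1 and POLE did not follow the other members either (r = -0.18, 0.04 and 0.07). RFC1 was at 12.76, 11.02 and 12.02 at 24 h in HT-29, against 11.95, 12.78 and 12.01 in the control, and its lowest value was 10.65 on the 4 h array of replicate 2. In HCT116 it was highest on the 24 h array of replicate 1 (13.39), the array on which most other members were lowest. Without that array r with the other members was 0.75 for GINS2, 0.44 for PCNA, 0.92 for CDC25A and -0.11 for RFC1 in HCT116. These correlations describe arrays that share a normalization and group differences.

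Other genes of the same processes were counted from lists chosen for their roles, also with earlier results of these data known. Among 32 other replication fork and origin genes, 27 were negative at 24 h in HT-29 with a median of -0.55 and 20 in HCT116 with a median of -0.05, or 21 with a median of -0.11 without the 24 h array of replicate 1. The histone-fold subunit of polymerase epsilon, POLE3, was the 1 lower DET in HT-29 (-0.99 ± 0.23). Among 16 other nucleotide and chromatin assembly genes, the nucleotide pyrophosphatase DCTPP1 was a lower DET in both lines (-1.07 ± 0.29 and -0.999 ± 0.292), and UHRF1, which recruits maintenance methylation to new DNA, in HT-29 (-1.03 ± 0.25). Of 30 G1 to S regulators, the repressor E2F8 was a lower DET in HT-29 (-1.28 ± 0.30). In HCT116 the pocket protein RBL2, the E2F partner TFDP2 and the phosphatase CDC25C, which acts at mitosis, were higher DETs (1.17 ± 0.30, 1.22 ± 0.23 and 1.05 ± 0.24). Against 4 h, all 3 rose as DETs in both lines, while E2F8 fell in HT-29 (-1.11 ± 0.30) and cyclin D1 (CCND1), cyclin D3 (CCND3) and the ubiquitin ligase subunit SKP2 fell in HCT116 (-1.22 ± 0.28, -0.98 ± 0.25 and -0.86 ± 0.24). TFDP2 in HCT116 passed the correction (1.59 ± 0.23, adjusted p = 0.030 in limma). Without the HCT116 24 h array of replicate 1 RBL2, TFDP2 and CDC25C still rose against 4 h and CCND1 still fell (-0.97 ± 0.27), CCND3 and SKP2 were no DETs, and the adjusted p of TFDP2 was 0.098 in limma. Against the control TFDP2 and CDC25C remained higher DETs without it (1.12 ± 0.25 and 0.96 ± 0.27), and RBL2 at 0.80 ± 0.24 and DCTPP1 at -0.63 ± 0.24 were then no DETs. Of 25 mitotic genes, 21 were negative at 24 h in HT-29 with a median of -0.34 and 7 in HCT116 with a median of 0.19 (10 and 0.07 without the 24 h array of replicate 1), and CDC20, an activator of the anaphase-promoting complex, was the 1 lower DET, in HCT116 (-0.89 ± 0.26, or -0.59 ± 0.22 and no DET without that array).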

How the data were processed

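RNA of untreated and ER-treated HT-29 and HCT116 cells was hybridised to Affymetrix whole-transcriptome arrays. The authors deposited 1 table of normalized log2 signals, 1 value for each transcript on each array. According to the methods, array data were acquired with the TAC software and RMA normalization was done with the oligo R package separately for each line, with a mean over probe sets and log2 transformation. Which of these programs wrote the deposited table is not stated in the sources used here, so differences were taken within a gene and a line. Levels across genes or lines served only to choose transcripts and members, to set the cut of high signal and to describe markers. No raw signals were used.

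Of 138745 features, 2995 controls were left out and 135750 transcripts tested. Of these, 36176 were assigned to a single gene, 33616 genes in all, and the transcript with the highest mean stood for a gene (6 members have several). The 9 arrays of a line were fitted with limma 3.58.1 (lmFit, eBayes, R 4.3.3), with Benjamini-Hochberg correction over all transcripts. An interaction term over all 18 arrays gave the difference between the lines. Percentages of all genes use 1 transcript per gene. On arrays the number of arrays limits the precision. The median SE of a member's difference was 0.29 in HT-29 and 0.27 in HCT116. In simulated data, 200 of 135750 transcripts were lowered by 1, 2 and 3 on the log2 scale. At 24 h against the control, 53.5%, 93% and 98.5% of them were DETs in HT-29. In HCT116, 66.5%, 98% and 99.5% were. The correction was passed by 7.5%, 71% and 93% in HT-29 and by 21.5%, 85.5% and 97.5% in HCT116. These rates describe the simulated transcripts alone. Most members were low together on the HCT116 24 h array of replicate 1. Whether the rates hold for the members was not tested.

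The 41 genes and the other gene lists were chosen with earlier results of these data known. Array values are given for members that were DETs in a comparison, for the 3 largest differences per line at 24 h, for the member of highest mean signal in each role and for some others named in the text as examples after their values were seen. Genes of other lists are named if they were DETs at 24 h against the control, and for G1 to S regulators also against 4 h. Roles, other lists, promoter groups and correlations in HCT116 without the 24 h array of replicate 1 were added after seeing the data. Alternatives were the methods' t-test without its permutation step, fits of fewer or all arrays, a replicate block, signal and annotation filters, quantile normalization, median centring, other limma settings, a fold of 1.5, and leaving out arrays. Promoter windows were searched with Python 3.11.15 and pandas 2.3.3, and figures drawn with matplotlib 3.10.9.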

Additional observations from a re-analysis of the deposited data

How the results depend on the processing

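Counts are of members that were lower DETs, with the value as reported first. Shares of all genes were computed for the fits as reported and not for the other settings. In HT-29 at 24 h against the control, 5 became 3 with the methods' t-test, 0 after correction and 2 to 6 when single arrays were left out (2 without the 24 h array of replicate 2, 3 without the control array of replicate 1 or of replicate 2); CDC25A and FEN1 were in the set under the t-test and without any single array. At 24 h against 4 h, 4 became 7 with the replicate block, 1 after correction and 3 to 4 without single arrays. In HT-29 at 4 h, 0 became 1 with replicates 2 and 3 alone and 0 to 1 without single arrays. In HCT116 at 24 h against the control, 0 became 1 in a fit of all 18 arrays (CDC25A), 2 with the replicate block (CDC25A and CCNE2) and 0 to 1 without single arrays (1 without the control or the 24 h array of replicate 3). At 24 h against 4 h, 2 became 0 with the t-test and after correction and 1 to 3 without single arrays (1 without the 4 h array of replicate 1 or of replicate 2). The median over members in HCT116 ranged from -0.45 to -0.0034 against the control and from -0.54 to -0.07 against 4 h when single arrays were left out, with -0.0034 and -0.0717 without the 24 h array of replicate 1. The cause of these moves was not tested beyond the loss of arrays. No member's DET changed its sign under these settings. Values that passed no test did, among them the HT-29 median at 4 h (-0.09, or 0.05 without the 4 h array of replicate 1 and 0.04 without the control array of replicate 3) and ORC6 and E2F1 in HCT116 at 24 h.

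The corrected call of CDC25A at 24 h against 4 h in HT-29 was lost in a fit of only the 6 arrays compared (adjusted p = 0.13 in limma), with the t-test (0.73), with replicates 2 and 3 alone (0.12) and without any one of 7 of the 9 arrays (0.053 to 0.16), and was kept without the control array of replicate 3 or the 4 h array of replicate 1. Same-numbered arrays correlated in their deviations at -0.15 to 0.50 in HT-29 and -0.07 to 0.24 in HCT116, with 5 of 9 pairs above 0.1 in each line. The lowest were pairs numbered 2, and no label ties a number to a shared batch, so the main fit did not pair the arrays. LYZ nevertheless set the HT-29 arrays numbered 1 apart in every group, at 16.94 to 17.48 against at most 11.77 on the others. The pairs numbered 1 all exceeded 0.1 (0.10 to 0.50 in HT-29 and 0.17 to 0.21 in HCT116). With the replicate block 7 members were lower DETs in HT-29 at 24 h against the control. The replicate block also let CCNE2 in HCT116 at 24 h against 4 h pass the correction (adjusted p = 0.035 in limma).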
